A study of Mus musculus with 6 samples.

Results

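The genes described here are 38 members of the mouse NRF2 and glutathione system, taken from the 55487 genes of the deposited tables by their symbols. They comprise the transcription factor gene Nfe2l2 (which encodes NRF2) and its inhibitor gene Keap1, the enzymes that make and recycle glutathione, 18 glutathione transferases, quinone, heme and peroxiredoxin enzymes, NADPH-supplying enzymes, a pair of genes linked to ferroptosis, and an exporter of glutathione conjugates. All 38 were found, and all 38 passed the filter on low counts. Gsta1 and Gsta2 passed it only through their level in the controls, so they could only be called lower or not at all.

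The series is a bulk RNA sequencing experiment on primary renal tubular epithelial cells cultured from mouse kidney. The ELF3 knockout group (3 libraries) had been infected with an adenovirus that carries Cre recombinase in order to delete Elf3, an ETS transcription factor of epithelia. The wild type control group (3 libraries) had been infected with a control adenovirus. All 6 libraries shared exposure to TNFα and IFNγ, and all 6 were labelled batch 1. The strain, sex and age of the mice, the floxed allele, the cytokine doses and the exposure times are not stated in the labels. The deleted stretch of Elf3 is not stated either. There was no group without cytokines, so every value below belongs to stimulated cells. Whether the 3 replicates came from separate animals or cultures is not given, and p-values then measure the spread between these libraries, which may be technical.

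NRF2 is held at a low level by KEAP1, which hands it over for degradation. Electrophiles and oxidants modify KEAP1, and NRF2 then accumulates in the nucleus and binds antioxidant response elements together with small MAF proteins. Its classic targets supply glutathione, NADPH and conjugating enzymes, and the kidney tubule, which handles and concentrates toxic compounds, relies on them. Because NRF2 is controlled mainly through the stability of the protein, its transcript level says little about its activity.

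Elf3 had 38, 32 and 21 estimated counts in the knockout libraries, against 201, 250 and 206 in the controls, which is 3.10 ± 1.12 and 22.0 ± 2.76 CPM (reads of a gene relative to the TMM-adjusted size of its library; SD, n = 3 each). The groups did not overlap. Its log2 fold change was -2.84 (SE 0.18, adjusted p = 6.84e-14, edgeR quasi-likelihood test). The two-sided exact permutation test gave p = 0.1, the smallest that 3 against 3 libraries allow, and the same limit holds for every single gene below. Total estimated counts per library lay between 8961779 and 10774195, and the 3 counts taken as a floor corresponded to 0.282 to 0.337 CPM, which covers counting error only.

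Of the 38 members, 17 fell and 5 rose in the knockout with an adjusted p below 0.05, and 16 were not called. Over all 13755 genes tested, 36.6% were called, 18.3% in each direction, against 57.9% of the members called, 44.7% lower and 13.2% higher. The members were chosen with earlier results of these data known, so these shares are descriptions only. With a filter at a mean of 5 CPM, 2240 of 11070 genes were higher and 2230 lower, and of 34 members 5 were higher and 16 lower. The members' median log2 fold change was -0.19, and that of all genes tested was -0.01. In CPM the groups did not overlap for 25 members, 18 with every knockout library below every control and 7 above, where 46.7% of all genes tested did not overlap, 23.6% with the knockout below and 23.0% above. A fall of 2-fold or more was called for 8 members and a rise of that size for none, beside 3.05% and 2.99% of all genes tested. The changes were unequal within the system. All 5 members for cystine import, glutathione synthesis and glutathione reduction and all 4 alpha class transferases were lower. Of the alpha class, Gsta1 and Gsta2 could not have been called higher, and both count among the 17 lower members and the 8 falls. Gsta3 and Gsta4 were free to go either way. Several mu, theta and omega class transferases and Nfe2l2 itself were higher.

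**Figure D1:**
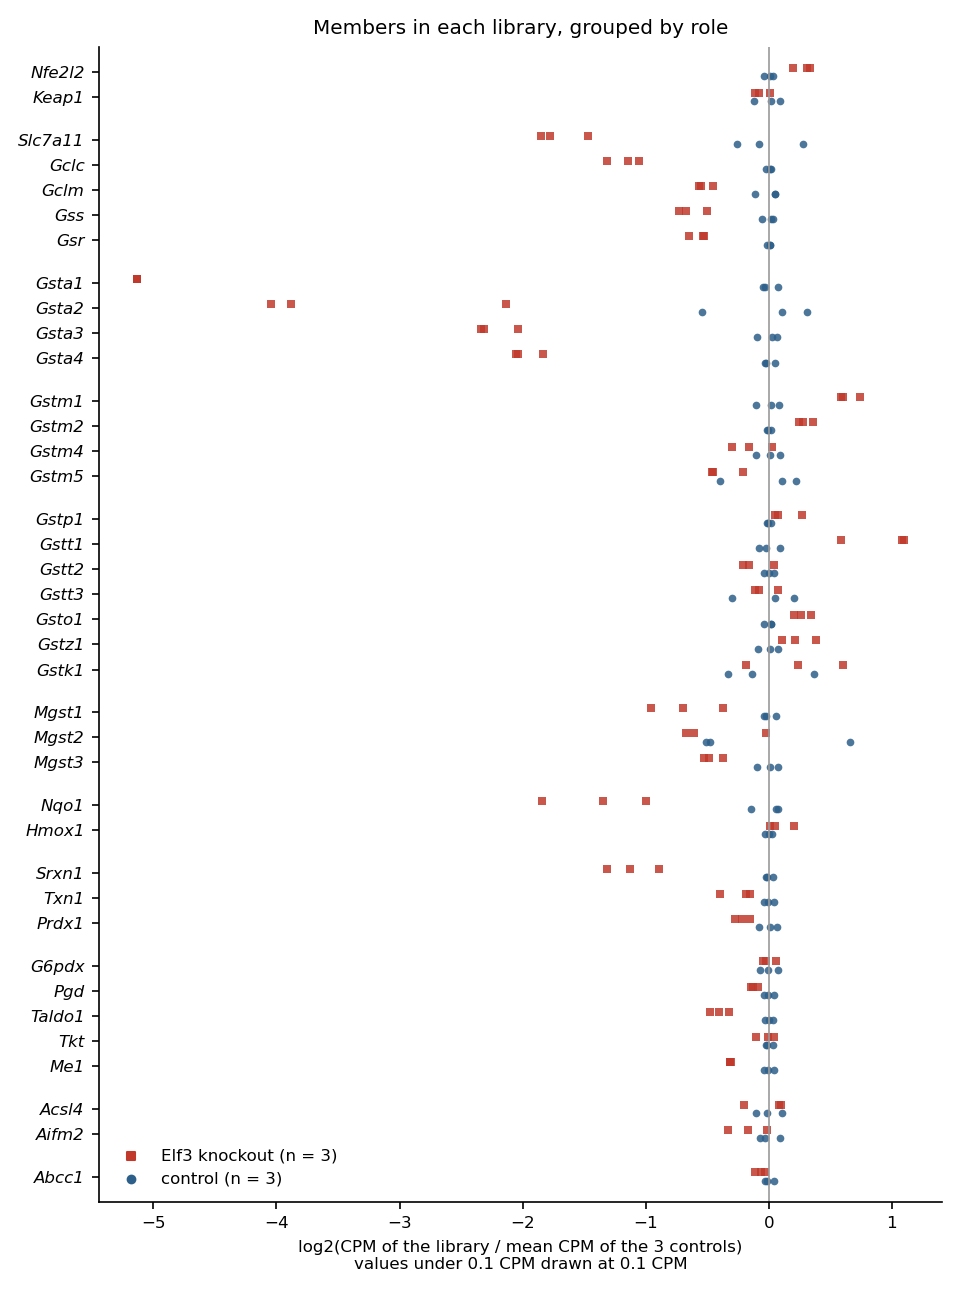
Each row is a member, ordered by role, and each point is 1 library: squares for the 3 Elf3 knockout libraries and circles for the 3 controls. The horizontal axis is the log2 ratio of a library's CPM to the mean CPM of the controls, so that the controls lie around 0. All knockout points of the glutathione synthesis genes and of the alpha class transferases lie to the left of all control points, and those of Gstm1, Gstt1 and Gsto1 lie to the right.

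The regulators came first. Nfe2l2 (ENSMUSG00000015839, mm10 chromosome 2, 75675513 to 75704641, minus strand) stood at 281, 256 and 277 CPM in the knockout libraries, against 224, 228 and 217 CPM in the controls. Every knockout library was above every control. Nfe2l2 rose 1.22-fold (log2 fold change 0.28, SE 0.050, adjusted p = 3.46e-05). Keap1, the adaptor that targets NRF2 for degradation, stood at 40.8 ± 1.76 CPM in the knockout and 42.5 ± 3.15 CPM in the controls and was not called (log2 fold change -0.06, SE 0.082, adjusted p = 0.621).

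Among the proteins that work with NRF2, 12 genes were listed and tested, of which 4 were called higher and 3 lower. Over all genes tested the share was 18.3% in each direction. Sqstm1, whose product p62 binds KEAP1 and can draw it away from NRF2, rose to 1197 ± 31.4 CPM in the knockout, against 865 ± 41.2 CPM in the controls (log2 fold change 0.47, SE 0.043, adjusted p = 2.5e-10). Bach1 encodes a repressor that occupies the same elements as NRF2, above all at the heme oxygenase gene. It fell to 50.2 ± 2.55 CPM in the knockout, against 77.5 ± 5.83 CPM in the controls (log2 fold change -0.62, SE 0.072, adjusted p = 2.67e-08). The small MAF partner Mafg was not called (104 ± 1.67 CPM in the knockout and 107 ± 1.29 CPM in the controls, adjusted p = 0.53).

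Promoter sequences were compared because NRF2 is known to act through a short element at its targets. The RefSeq table on GRCm38.p6, the assembly that mm10 also denotes, held a window from 250 bases before to 50 bases after an annotated start for 32 of the 38 members. The element was searched as TGACNNNGC on both strands. The 32 members had 39 windows, since some genes have several annotated starts, and a gene was counted if any of its windows held the element. It was present at 10 of the 32 members (31.2%), at 6 of the 14 matched members called lower, at 1 of the 5 called higher and at 3 of the 13 not called. Of 27025 genes with such a window, 14.0% held it. A match is a description of letters and not a binding site, and elements farther than 250 bases from a start lie outside these windows.

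The matches are shown with up to 16 bases on each side, read 5′ to 3′ on the strand that carries the element, with the element in capitals, so that their cores can be compared. The first 6 belong to members that were lower in the knockout.
Gsta3 (chr1:21240448-21240488, plus strand): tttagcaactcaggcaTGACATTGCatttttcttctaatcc
Srxn1 (chr2:152105536-152105573, minus strand): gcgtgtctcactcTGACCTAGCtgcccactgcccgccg
Mgst1 (chr6:138140455-138140495, minus strand): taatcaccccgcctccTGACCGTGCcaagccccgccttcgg
Gclm (chr3:122245407-122245447, minus strand): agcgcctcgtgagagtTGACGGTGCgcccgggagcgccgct
Me1 (chr9:86695896-86695936, minus strand): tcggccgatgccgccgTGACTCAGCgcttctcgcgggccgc
Prdx1 (chr4:116685450-116685490, minus strand): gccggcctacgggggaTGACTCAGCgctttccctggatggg
The next is from the promoter of Nfe2l2, which was higher in the knockout.
Nfe2l2 (chr2:75704879-75704913, minus strand): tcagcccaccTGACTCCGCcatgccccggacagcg
The last 3 are from members that were not called.
G6pdx (chrX:74428913-74428953, plus strand): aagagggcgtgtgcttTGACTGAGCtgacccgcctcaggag
Gstm5 (chr3:107895796-107895836, plus strand): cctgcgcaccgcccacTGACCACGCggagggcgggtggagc
Pgd (chr4:149166055-149166095, minus strand): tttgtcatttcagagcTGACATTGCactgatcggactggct

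Me1 and Prdx1 shared the same 9 letters, TGACTCAGC, and Gsta3 and Pgd also shared theirs, TGACATTGC, although Gsta3 fell and Pgd was not called. The element lay from base -121 to -113 relative to the start at Gsta3, from -133 to -125 at Prdx1, from -134 to -126 at Gclm and from -240 to -232 at Nfe2l2. At Srxn1 it lay after the start, from base 29 to 37, and so it did at Pgd, from base 4 to 12. At Me1 it spanned the start, from base -6 to 3. Pgd, Me1 and Mgst1 each also had a window at another annotated start, which held no match. Full windows are printed for Gsta3, the member with this element that fell furthest, and for Nfe2l2, the only one that rose, each 5′ to 3′ on its gene's strand with the element in capitals.
Gsta3 (chr1:21240335-21240634, plus strand): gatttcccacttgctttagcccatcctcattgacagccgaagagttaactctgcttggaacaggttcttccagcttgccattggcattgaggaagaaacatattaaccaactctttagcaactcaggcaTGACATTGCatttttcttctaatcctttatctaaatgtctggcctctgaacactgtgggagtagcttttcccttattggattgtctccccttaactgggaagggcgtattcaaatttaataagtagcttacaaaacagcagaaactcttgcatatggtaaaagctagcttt
Nfe2l2 (chr2:75704614-75704913, minus strand): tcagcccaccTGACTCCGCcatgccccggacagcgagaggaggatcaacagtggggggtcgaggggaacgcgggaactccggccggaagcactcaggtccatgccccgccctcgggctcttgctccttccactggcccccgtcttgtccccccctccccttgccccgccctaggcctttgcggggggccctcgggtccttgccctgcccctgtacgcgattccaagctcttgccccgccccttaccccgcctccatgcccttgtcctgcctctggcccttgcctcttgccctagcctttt
The Gsta3 window held 41.0% G and C bases and the Nfe2l2 window 68.7%. A second search, for GGAAGT on both strands, a sequence of the kind that ETS factors such as ELF3 bind, found it at 6 of the 32 members (18.8%) and at 26.5% of all genes with a window. Of the 14 matched members called lower, only Nqo1 had it, and of the 5 called higher none had it within these windows.

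The members for cystine import, glutathione synthesis and glutathione reduction were lower in the knockout, 5 of 5, where 18.3% of all genes tested were called lower. Slc7a11, the cystine-importing subunit of the cystine and glutamate exchanger, stood at 9.99, 10.5 and 13.0 CPM in the knockout libraries, against 34.2, 43.7 and 30.2 CPM in the controls. The groups were well apart, although control replicate 2 was higher than the other controls. Slc7a11 fell 3.22-fold (log2 fold change -1.69, SE 0.13, adjusted p = 4.84e-12). Its longest annotated transcript shares 92.3% identity over 588 bases with Tuba1b, which was also lower (log2 fold change -0.63). Slc7a11 had no fractional count in any library, and whether reads were shared with Tuba1b was not tested. Slc3a2, the partner chain of the exchanger, rose slightly (log2 fold change 0.15, adjusted p = 0.0362).

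The next enzyme, glutamate-cysteine ligase, limits the rate of glutathione synthesis. Gclc, its catalytic subunit, stood at 62.7, 66.4 and 55.7 CPM in the knockout libraries, against 139.7, 139 and 136 CPM in the controls, so that all knockout libraries lay far below. It fell 2.24-fold (log2 fold change -1.17, SE 0.066, adjusted p = 2.7e-15). Gclm, its modifier subunit, fell to 72.5 ± 3.12 CPM in the knockout, against 104 ± 6.81 CPM in the controls (log2 fold change -0.53, SE 0.066, adjusted p = 1.26e-07). The subunits therefore differed in the size of the fall, and the difference between them was not tested. Gclm had fractional counts in all 6 libraries, and its exons overlap those of Gm17494 on the opposite strand, which was not called (adjusted p = 0.357).

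Gss joins glycine in the final step of synthesis. It fell to 48.8 ± 4.15 CPM in the knockout, against 75.7 ± 2.41 CPM in the controls (log2 fold change -0.64, SE 0.072, adjusted p = 1.83e-08). Its exons overlap those of Acss2 on the opposite strand, which was called lower too and had 126 counts over the knockout libraries and 254 over the controls, few beside the 477 to 799 counts of Gss in each library. Gsr reduces oxidised glutathione with NADPH. It stood at 150, 164 and 163 CPM in the knockout libraries, against 233, 237 and 237 CPM in the controls, and fell 1.48-fold (log2 fold change -0.56, SE 0.052, adjusted p = 2.42e-10). In TPM, the authors' length-scaled transcript level, which allows genes to be compared, the summed level of these 5 genes was 281 to 288 in the knockout libraries and 425 to 446 in the controls.

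The alpha class transferases, which conjugate lipid peroxidation products and other electrophiles, were lower in all 4 cases, with the largest folds among the members. Of these, only Gsta3 and Gsta4 could have been called in either direction. Among all genes tested, 18.3% were called lower. Gsta1 had 0, 1 and 0 counts in the knockout libraries, against 35.75, 38.32 and 31.08 in the controls. Over the group, 1 count stood against 105, a ratio of 0.00954 with a 95% exact interval of 0.000239 to 0.0543 that covers counting error only. Its fitted log2 fold change of -6.26 (adjusted p = 3.2e-09) depends on the prior count and is no bound. Gsta2 had 1, 4 and 1 counts in the knockout libraries, against 11.61, 20.83 and 16.21 in the controls. It reached 12.3% of the control level by summed counts (95% exact interval 4.29% to 28.7%; adjusted p = 0.00015). Knockout replicate 2 held 4 of its 6 knockout counts, and without that library the fitted log2 fold change was -3.82, in place of -2.96, and that of Gsta1 was -8.11.

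Gsta1 and Gsta2 are close copies, with 97.2% identity over 870 bases of transcript, and both had fractional counts in the 3 control libraries, so reads could be split between them. Gm3776, a gene model 99.5% identical to Gsta1, had 1 count over the knockout libraries and 110 over the controls. Summed over Gsta1, Gsta2, Gm3776 and Gm10639, which a split cannot change among them, counts were 1, 6 and 1 in the knockout libraries, against 82, 102 and 84 in the controls. The near loss of these transcripts therefore did not depend on how reads were shared within the group.

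Gsta3, known in the mouse for conjugating activated aflatoxin, stood at 4.04, 4.89 and 3.96 CPM in the knockout libraries, against 20.4, 21.0 and 18.8 CPM in the controls. Its fall was 4.65-fold (log2 fold change -2.22, SE 0.15, adjusted p = 3.65e-13). Gsta4, which is specialised for hydroxynonenal and related lipid aldehydes, stood at 9.09, 7.90 and 7.82 CPM in the knockout libraries, against 31.9, 31.8 and 33.7 CPM in the controls. It fell 3.93-fold (log2 fold change -1.98, SE 0.12, adjusted p = 8.96e-15). Neither had a fractional count, and each group was narrow, with a coefficient of variation of 12.0% in the knockout and 5.75% in the controls for Gsta3, and of 8.59% and 3.26% for Gsta4.

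Gclc, Gsta4, Gsta1 and Gsta2 lie in order within 601 kb of chromosome 9 (mm10, 77754535 to 78355788). In that interval 10 genes were tested, and 5 were called lower and none higher, beside 18.3% in each direction among all genes tested. The 5 were these 4 members and Gm3776. Gsta1, Gsta2 and Gm3776 passed the count filter only through the controls and could not have been called higher, and Gsta1 and Gm3776 may share reads, which leaves Gclc and Gsta4 as calls free to go either way. Elovl5, Fbxo9 and Cilk1, which lie in the same interval, were not called. Gsta3 lies apart, on chromosome 1 (21240589 to 21265661, plus strand), so the fall was not restricted to the chromosome 9 group.

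The mu class behaved otherwise. Gstm1 (chromosome 3, 108012255 to 108017973, minus strand), a broad-range transferase, stood at 133, 147 and 132 CPM in the knockout libraries, against 88.6, 92.8 and 81.7 CPM in the controls. All knockout libraries were higher, and Gstm1 rose 1.57-fold (log2 fold change 0.65, SE 0.063, adjusted p = 9.38e-10). Gstm2 rose to 36.0 ± 1.52 CPM in the knockout, against 29.3 ± 0.323 CPM in the controls (log2 fold change 0.29, SE 0.087, adjusted p = 0.00787). Gstm4 was not called (5.72 ± 0.642 CPM in the knockout and 6.29 ± 0.419 CPM in the controls, adjusted p = 0.603).

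Gstm5 had a lower mean and was not called, with 11.1, 11.0 and 13.1 CPM in the knockout libraries, against 11.5, 16.3 and 17.7 CPM in the controls (log2 fold change -0.36, SE 0.15, adjusted p = 0.0585). The groups overlapped because of control replicate 1, and without that library Gstm5 was called lower (log2 fold change -0.53, adjusted p = 0.00665). Its exons overlap those of 4933431E20Rik on the opposite strand, which was called lower (adjusted p = 0.0448). Of the 5 tested genes between Gstm5 and Gstm4 on chromosome 3, a span of 149 kb, 3 were called higher and none lower. Among all genes tested, 18.3% were called in each direction. The 3 called genes were Gstm1, Gstm2 and Gstm6. The last passed the count filter only through the knockout, so it could only be called higher or not at all, and it had 15, 13 and 16 counts in the knockout libraries, against 1, 3 and 6 in the controls (adjusted p = 0.00277). Gstm1 and Gstm2 are 86.9% identical over 649 bases, and neither had a fractional count.

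Gstt1, a theta class transferase that handles small halogenated compounds, also rose. It stood at 7.97, 7.90 and 5.60 CPM in the knockout libraries, against 3.67, 3.98 and 3.53 CPM in the controls, with no overlap, a 1.91-fold rise (log2 fold change 0.93, SE 0.22, adjusted p = 0.000955). Its neighbours on chromosome 10, Gstt2 and Gstt3, were not called (log2 fold changes -0.11 and -0.04, adjusted p = 0.436 and 0.848). Gsto1, the omega class enzyme known for thioltransferase and dehydroascorbate reductase activity, rose to 301 ± 15.1 CPM in the knockout, against 249.6 ± 5.39 CPM in the controls (log2 fold change 0.27, SE 0.049, adjusted p = 5.09e-05). Gstz1, an isomerase of tyrosine breakdown, and Gstp1, the pi class enzyme, had every knockout library above every control but were not called (log2 fold changes 0.24 and 0.13, adjusted p = 0.0727 and 0.103). Both were called higher without knockout replicate 2 (adjusted p = 0.04 and 0.0463). The exons of Gstz1 overlap those of Pomt2 on the opposite strand, which was not called (adjusted p = 0.317). Gstp1 had fractional counts in all 6 libraries and shares 94.2% identity over 798 bases with Gstp2, which had 34 counts over the knockout libraries and 10 over the controls. Gstk1, the kappa class enzyme of mitochondria and peroxisomes, had 20 to 29 counts per knockout library and 18 to 25 per control library, too few to resolve a small difference (adjusted p = 0.585).

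Of the 3 membrane-bound transferases, 2 were lower, beside 18.3% of all genes tested. Mgst1, found in the endoplasmic reticulum and outer mitochondrial membrane, stood at 36.6, 24.4 and 29.3 CPM in the knockout libraries, against 46.6, 49.5 and 46.2 CPM in the controls (log2 fold change -0.67, SE 0.10, adjusted p = 3.01e-06). The knockout libraries were spread more widely than the controls, with no overlap. Mgst3 fell to 14.5 ± 0.808 CPM in the knockout, against 20.0 ± 1.18 CPM in the controls (log2 fold change -0.46, SE 0.12, adjusted p = 0.00226). Mgst2, which can make leukotriene C, was not called (1.63 ± 0.432 CPM in the knockout and 2.15 ± 1.08 CPM in the controls, adjusted p = 0.433).

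**Figure D2:**
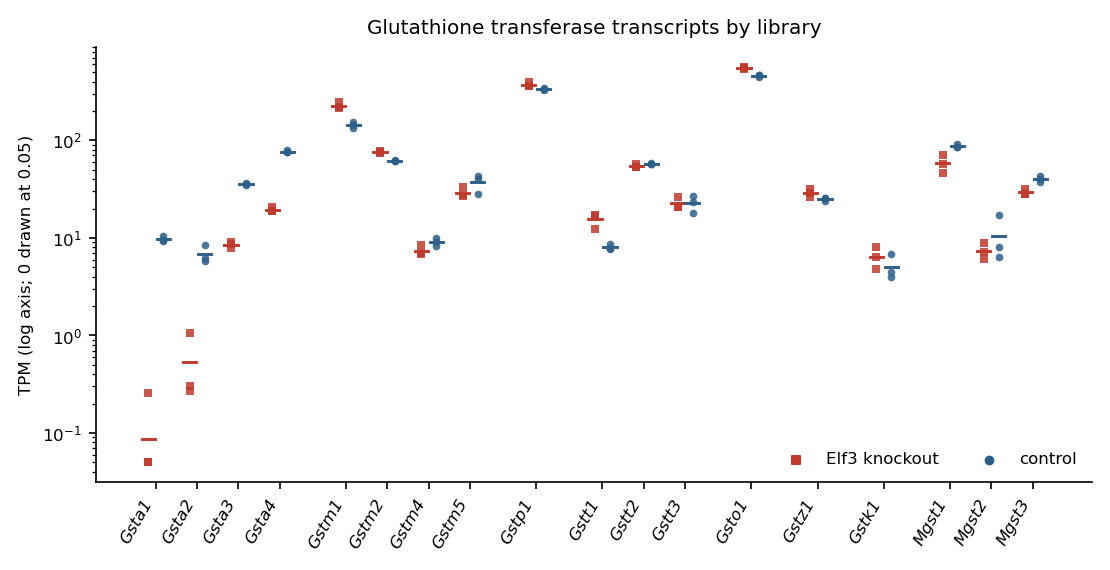
The vertical axis is TPM on a log scale for the 18 member transferases, grouped by class. Squares are the 3 Elf3 knockout libraries, circles the 3 controls, and bars the group means. The 4 alpha class genes are low in the knockout, while the most abundant genes, Gsto1, Gstp1 and Gstm1, have every knockout library above every control.

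By level, the alpha class was a minor part of the transferases in these cells. In the knockout the order by mean TPM began with Gsto1 at 551 ± 16.6, Gstp1 at 372 ± 20.8 and Gstm1 at 227 ± 16.2 TPM, and the same 3 genes led in the controls, at 461 ± 10.9, 337 ± 4.99 and 145 ± 10.1 TPM (SD, n = 3 each). The next places were held by Gstm2 at 76.0 ± 1.27 TPM in the knockout and by Mgst1 at 88.1 ± 3.69 TPM in the controls. Gsta4 stood next to Mgst1 in the controls at 76.7 ± 2.26 TPM, and at 19.4 ± 1.20 TPM in the knockout.

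Summed over its 4 genes, the alpha class amounted to 29.0, 29.0 and 27.6 TPM in the knockout libraries, against 129, 129 and 129.8 TPM in the controls. That was 2.01% ± 0.0316 of the TPM of the 15 soluble member transferases in the knockout and 9.94% ± 0.240 in the controls. The mu class summed to 327, 356 and 335 TPM in the knockout libraries, against 244, 266 and 249 TPM in the controls. The sum over all 15 soluble transferases was 1454, 1417 and 1385 TPM in the knockout libraries, against 1266, 1324 and 1307 TPM in the controls, so the pool as a whole was not smaller in the knockout and its make-up shifted from alpha towards mu and omega class transcripts. These sums are descriptions and carry no test.

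**Figure D3:**
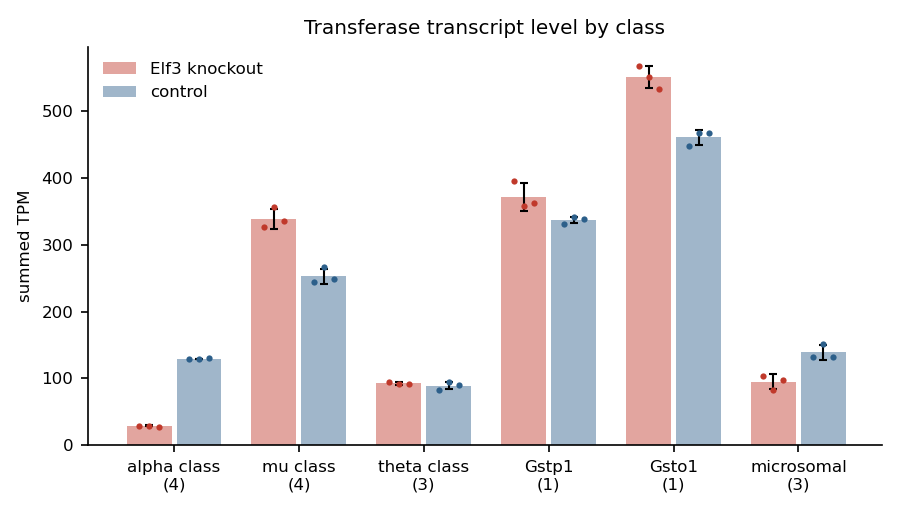
Bars give the mean summed TPM of each transferase class, with the number of genes in brackets, in the Elf3 knockout (left bar of each pair) and the control (right bar). Error bars are SD over 3 libraries and points are single libraries. The alpha class averages 28.6 TPM in the knockout and 129 TPM in the controls, and the mu class 339 TPM in the knockout and 253 TPM in the controls.

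Nqo1, the quinone reductase that is often used as a readout of NRF2, stood at 5.39, 4.23 and 2.99 CPM in the knockout libraries, against 9.71, 11.2 and 11.3 CPM in the controls. All knockout libraries were lower, and Nqo1 fell 2.57-fold (log2 fold change -1.36, SE 0.20, adjusted p = 1.83e-06). Hmox1, the inducible heme oxygenase, stood at 48.1, 42.1 and 43.3 CPM in the knockout libraries, against 40.9, 41.9 and 42.7 CPM in the controls. Its groups overlapped and it was not called (log2 fold change 0.09, SE 0.079, adjusted p = 0.42). This pair, both classic targets, thus gave different results, and the difference between them was not tested.

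The 3 genes of the thioredoxin and peroxiredoxin system were lower, as were 18.3% of all genes tested. Srxn1, sulfiredoxin, which reactivates overoxidised peroxiredoxins, stood at 35.9, 30.5 and 26.8 CPM in the knockout libraries, against 66.1, 68.2 and 65.9 CPM in the controls, a 2.16-fold fall (log2 fold change -1.11, SE 0.085, adjusted p = 4.37e-12). Txn1, cytosolic thioredoxin, fell to 166 ± 15.3 CPM in the knockout, against 196 ± 5.14 CPM in the controls (log2 fold change -0.24, SE 0.058, adjusted p = 0.00131). Prdx1, a peroxidase that uses thioredoxin and the most abundant member at 902 ± 66.2 TPM in the knockout and 936 ± 72.3 TPM in the controls, was called lower on counts (log2 fold change -0.22, SE 0.046, adjusted p = 0.000404). On the TPM scale its groups overlapped and the call was lost (difference in log2(TPM + 1) of -0.05, adjusted p = 0.675 and 0.669 to 0.726 over the 3 settings on TPM, limma).

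Of the 5 NADPH-supplying and pentose phosphate enzymes, 2 fell, beside 18.3% of all genes tested that were called lower. So small a list cannot be set apart from that share. Taldo1, transaldolase of the non-oxidative branch, fell to 141 ± 7.76 CPM in the knockout, against 186 ± 3.97 CPM in the controls (log2 fold change -0.40, SE 0.054, adjusted p = 5.39e-07). Me1, the cytosolic malic enzyme, fell to 113 ± 0.831 CPM in the knockout, against 141 ± 4.28 CPM in the controls (log2 fold change -0.31, SE 0.056, adjusted p = 3.58e-05). The enzymes of the oxidative branch were not called. G6pdx, which catalyses its first step, stood at 92.7 ± 3.48 CPM in the knockout and 92.9 ± 4.65 CPM in the controls (SE of the log2 fold change 0.063, adjusted p = 0.968). Its exons overlap those of Ikbkg on the opposite strand, which was called lower (log2 fold change -0.30, adjusted p = 0.000522). Ikbkg had 2033 counts over the knockout libraries and 2509 over the controls, and whether its reads entered the value of G6pdx was not tested. Pgd had every knockout library below every control, at 225 ± 4.83 CPM in the knockout and 244 ± 7.62 CPM in the controls, and just missed the threshold (log2 fold change -0.12, SE 0.049, adjusted p = 0.0533). Tkt, transketolase, was not called (log2 fold change -0.02, SE 0.048, adjusted p = 0.786).

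Acsl4, which activates polyunsaturated fatty acids to coenzyme A esters and so promotes ferroptosis, and Aifm2, which protects against it by reducing ubiquinone, were not called. Acsl4 stood at 144 ± 16.2 CPM in the knockout and 144 ± 10.6 CPM in the controls (SE of the log2 fold change 0.067, adjusted p = 0.997). Aifm2 stood at 15.0 ± 1.63 CPM in the knockout and 16.8 ± 0.986 CPM in the controls (log2 fold change -0.16, SE 0.12, adjusted p = 0.322). Its exons overlap those of H2afy2 on the opposite strand. Abcc1, which exports glutathione conjugates, was not called either (122 ± 3.58 CPM in the knockout and 127 ± 3.57 CPM in the controls, log2 fold change -0.06, SE 0.056, adjusted p = 0.415).

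Beyond the members, 136 listed genes of the wider pathway were in the tables and 111 were tested. Of these, 40 were lower, 25 were higher and 46 were not called, which is 36.0% lower and 22.5% higher beside 18.3% in each direction among all genes tested. Their median log2 fold change was -0.08. Peroxidases, glutaredoxins and enzymes of glutathione breakdown gave 9 lower and 5 higher of 18 tested. Other NRF2-linked detoxification and antioxidant genes gave 17 lower and 8 higher of 44, ferroptosis and iron genes 5 lower and 3 higher of 19, cysteine and methionine genes 3 lower and 2 higher of 9, other transferases 1 lower and 2 higher of 5, and the aryl hydrocarbon receptor genes 2 lower and 1 higher of 4.

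Among the wider genes with the largest falls was Slc40a1, ferroportin, the cellular iron exporter and a known NRF2 target. It stood at 44.2 ± 1.81 CPM in the knockout and 138 ± 4.89 CPM in the controls (log2 fold change -1.64, SE 0.066, adjusted p = 6.25e-19). Cbs, which starts the conversion of homocysteine to cysteine, stood at 4.60, 6.02 and 7.44 CPM in the knockout libraries, against 18.7, 18.4 and 19.5 CPM in the controls (log2 fold change -1.63, SE 0.15, adjusted p = 3.96e-10). Ggt1, which begins the breakdown of extracellular glutathione at the tubular brush border, fell 2.02-fold (adjusted p = 1.29e-08). Cbr3, a carbonyl reductase, fell 2.50-fold (adjusted p = 2.81e-05) and Ugt1a7c, a glucuronosyltransferase, 1.92-fold (adjusted p = 1.54e-08).

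Osgin1, Alox5, Ptges, Ggct and Tiparp had the largest rises among wider genes called with a mean of at least 5 CPM in a group. Txnrd1 and Gpx4 were named whatever their values and are not among these. Osgin1, which is induced by oxidative stress and regarded as an NRF2 target, stood at 73.3, 70.3 and 63.7 CPM in the knockout libraries, against 33.2, 30.7 and 28.3 CPM in the controls (log2 fold change 1.16, SE 0.081, adjusted p = 4.11e-13). Txnrd1, thioredoxin reductase and another classic target, rose 1.16-fold (log2 fold change 0.21, SE 0.048, adjusted p = 0.000674), a call that was lost in the 3 settings on TPM (adjusted p = 0.0936 to 0.144). Known NRF2 targets thus moved in both directions. Alox5, an arachidonate lipoxygenase, rose 3.35-fold (adjusted p = 7.66e-09) and Ptges, a prostaglandin E synthase of the microsomal transferase family, 3.89-fold, to 6.03 ± 0.50 CPM in the knockout, against 1.57 ± 0.715 CPM in the controls (adjusted p = 2.74e-06). Ggct, which breaks down gamma-glutamyl peptides, rose 1.75-fold (adjusted p = 0.000406) and Tiparp, a target of the aryl hydrocarbon receptor, 1.46-fold (adjusted p = 6.77e-05). Gpx4, the peroxidase that protects membranes from ferroptosis, rose to 307 ± 37.9 CPM in the knockout, against 249.6 ± 6.95 CPM in the controls (log2 fold change 0.30, SE 0.060, adjusted p = 0.000189). With log2(TPM + 1) and no filter the calls of Gpx4, Tiparp and Cbs were lost (adjusted p = 0.0701, 0.0817 and 0.0543, limma).

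**Figure D4:**
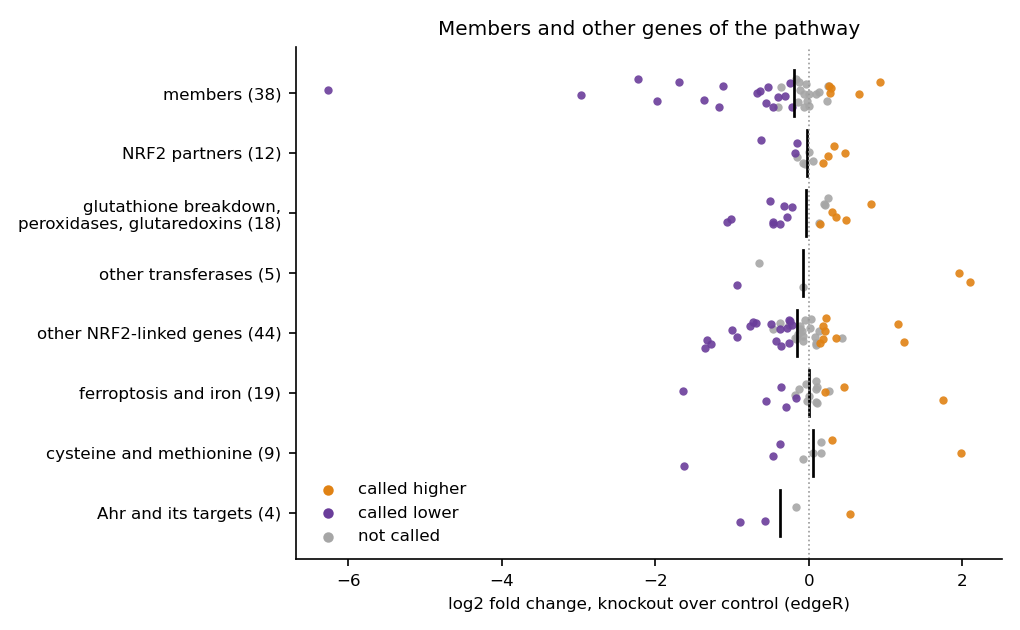
Each point is a tested gene and the horizontal axis is its log2 fold change, knockout over control. The top row holds the 38 members and the rows below the lists of other pathway genes, with the number tested in brackets; orange marks genes called higher, purple genes called lower, grey genes not called, and the black line the median. The members reach from -6.26 on the left to 0.93 on the right, and calls in both directions occur in each list.

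The labelled cell type was checked against its markers. The calls in this and the next paragraph stand beside 18.3% of all genes tested that were called in each direction. All 8 tubular epithelial genes, among them Epcam, Cdh1, Pax8 and the keratins Krt8 and Krt18, were detected. Their summed level was 6308 to 6500.4 TPM in the knockout libraries and 4569.8 to 4687 TPM in the controls. Of them, 5 were called higher and 3 lower, and the share of each gene in the sum was not examined. Of 16 proximal tubule markers 9 could be tested, 4 were lower and 1 was higher, and Slc22a6 and Miox were at 0 in every library. The proximal list summed to 48.4 to 54.8 TPM in the knockout libraries and 76.5 to 81.7 TPM in the controls. The list includes Ggt1, a wider pathway gene named above, at 18.8 ± 3.32 TPM in the knockout and 38.3 ± 3.30 TPM in the controls. Ggt1 alone thus made up most of the difference in the sum, and 4 of the 9 tested markers were not called. The sum moved in the direction of the alpha class transferases, and the part of this list in their fall was not tested. In bulk samples, fewer cells of a type and less RNA per cell cannot be told apart.

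Markers of other cell types were summed in the same way. The 10 leukocyte genes summed to 46.0 to 63.6 TPM in the knockout libraries and 74.8 to 83.2 TPM in the controls, with Cd3e at 0 throughout, and of 8 tested only Cd14 was called, as lower. The 7 endothelial genes summed to 2.38 to 3.70 TPM in the knockout libraries and 0.680 to 1.31 TPM in the controls, with Tie1 at 0 and only Kdr tested and called, as higher. The 8 fibroblast and pericyte genes summed to 256 to 257 TPM in the knockout libraries and 197 to 224 TPM in the controls, with Lum at 0, and of 6 tested 3 were higher and 1 was lower. Of the podocyte markers, Podxl was higher, at 58.2 to 70.9 TPM in the knockout libraries and 28.3 to 30.2 TPM in the controls, and so was Synpo, at 36.5 to 45.7 TPM in the knockout libraries and 24.7 to 31.8 TPM in the controls. Wt1 was lower, at 0.85 to 0.93 TPM in the knockout libraries and 1.17 to 2.19 TPM in the controls. The distal nephron and collecting duct list of 12 summed to 8.87 to 11.6 TPM in the knockout libraries and 12.5 to 19.2 TPM in the controls, with Kcnj1 and Aqp2 at 0, and 1 of 5 tested was lower. The part of these lists in the results on the members was not tested.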

How the data were processed

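Per the labels' protocols, RNA was enriched for mRNA and sequenced. The estimated counts per gene were deposited by the authors without scaling, and 93.3% of nonzero values were whole within 1e-06. A second table deposited by the authors held TPM. Listed in the submitters' processing notes are mm10, Salmon and featureCounts without their roles, and strand setting, annotation and versions are not given there. Groups were taken from the sample titles. Counts were rounded, filtered with filterByExpr (13755 of 55487 genes kept), normalized by TMM and put through edgeR 4.0.16 (R 4.3.3), whose quasi-likelihood test was run without covariates, with Benjamini-Hochberg adjustment over all genes tested and a threshold of 0.05. Fold changes are knockout over control. Total estimated counts were 8961779 to 10774195 per library, and replicates differed by more than sampling noise (chi-square per degree of freedom 2.02 to 3.64). The script was tested on simulated data. Positions come from the GENCODE M21 annotation of mm10, where all 38 members were found; transcript identities are from blastn 2.17.0 over at least 200 aligned bases. Alternatives used DESeq2 1.42.0, limma 3.58.1, other scalings and filters, TPM with pseudocounts of 1 and 0.1 at a mean of at least 0.5 TPM, a replicate block and leaving out each library. The members and gene lists were chosen with earlier results of these data known. The text names all members, Elf3, up to 5 other pathway genes per direction, taken from those called with a mean of 5 CPM or more in one of the groups and ordered by fold change, and Txnrd1, Gpx4, Bach1, Mafg and Sqstm1; Gstm6, Slc3a2 and the overlapping or neighbouring genes were added after their values were seen. Some cell type markers and the sum of their list are not reported here.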

Additional observations from a re-analysis of the deposited data

How the results depend on the processing

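The 5 members called higher were called higher in all 18 alternatives, and 5 to 7 members were higher and 17 or 18 lower when a library was left out. Lower calls among members numbered 14 to 19 over all alternatives. Each of Txn1 and Me1 missed the threshold with log2(TPM + 1) without a filter (adjusted p = 0.0745 and 0.0532), and Prdx1 in the 3 TPM settings. Shifts of named genes in at least 1 TPM setting included log2 values of -3.31 for Gsta1 (main fit -6.26) and -2.36 for Gsta2 (main fit -2.96). Ptges likewise stood at 1.20 (main fit 1.96) and Ggct at 1.38 (main fit 0.81). Pgd was called lower in 4 alternatives and Gstm5 in 5. Leaving out a library gave 2161 to 2583 genes higher and 2031 to 2426 lower, and for Elf3 log2 fold changes of -3.11 to -2.60.

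TPM with limma called fewer genes; the cause was not tested. With log2(TPM + 1), log2(TPM + 0.1) and log2(TPM + 1) without a filter, 1421, 1412 and 1195 genes were higher and 1291, 1304 and 980 lower, and of the other pathway genes 15, 15 and 14 were higher and 22, 22 and 14 lower.

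Among the members, signs turned for 5, none of which was called in any setting. Gstt3 was 0.0056, 0.0063 and 0.0056 in these TPM settings and -0.17 to 0.08 without 1 library, and Mgst2 was -0.64 to 0.10 and Tkt -0.05 to 0.02 without 1 library. G6pdx was 0.00063 with RLE size factors, 0.00065 with DESeq2 and -0.03 to 0.04 without 1 library. Acsl4 was -0.02 with library totals, -0.0017 with limma-voom, -0.0039 with the replicate block, -0.0047, -0.0049 and -0.0047 in the TPM settings and -0.04 to 0.09 without 1 library.

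No pairing by replicate number was seen: deviations of same-numbered libraries from their group means correlated at 0.003 to 0.007. Differently numbered ones correlated at -0.033 to 0.028. With 3 libraries per group, this cannot show whether same-numbered libraries shared an animal or culture. With the replicate number as a block, 18 members were lower and 5 higher, and Gstm5 was the added call (adjusted p = 0.0324). For genes with few counts, such as Gstk1 and Mgst2, depth limits what could be detected.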
